A study of Arabidopsis thaliana with 8 samples.

Results

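Cysteine-rich receptor-like kinases (CRKs) of Arabidopsis thaliana were examined in a leaf RNA-Seq series. The members were 39 locus identifiers listed by family membership, chosen with earlier results of these data known. Of these, 37 were among the 21960 genes of the deposited tables, and CRK25 (AT4G05200) and CRK33 (AT4G11490) were not analysed here. A tandem block of 19 members on chromosome 4, AT4G23130 to AT4G23320, was complete and was set beside the 18 members that lie elsewhere. AT4G23250 carries the symbol EMB1290 in the annotation and CRK17 as a synonym.

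The plants were Col-0 wild type, the constans mutant co-SAIL, and 2 lines that overexpress a microProtein, 35S::miP1a and 35S::miP1b, all in the Col-0 ecotype. Leaves came from plants of 4 weeks grown untreated in long days of 16 h light and 8 h dark, with 2 libraries per genotype. The labels give 20 °C, and the methods give another temperature for gene expression analysis. The microProteins were FLAG-tagged and driven by the 35S promoter, which is active in most plant tissues, and not by their own promoters. How many independent transgenic lines or plants stand behind each pair of libraries is not given in the sources used here. The series text calls the 2 libraries technical replicates and the methods call them 2 samples, so the spread between them may be technical. The main test used the same dispersion for every gene, a coefficient of variation of 11.5%, and not the spread between that gene's own libraries. Only the limma voom fit described below takes its error from that spread. No p-value of either test covers variation beyond these libraries. The comparisons asked which transcripts change when CO activity is removed by mutation or opposed by a microProtein.

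CRKs span the plasma membrane. Outside the cell they carry DUF26 domains, each with a C-X8-C-X2-C cysteine motif, and inside the cell they carry a serine/threonine protein kinase. The family is known from leaves, where many members are induced by salicylic acid, by pathogens and by reactive oxygen species, and where overexpression of several members brings on cell death or raises pathogen resistance. Their promoters are known for W-boxes, the TTGAC elements that WRKY transcription factors bind, and TGACG elements are bound by TGA factors, the partners of the salicylic acid receptor NPR1.

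The cysteine motif was found in the annotated proteins of all 39 members, with 2 copies in most of them. CRK24 and CRK27 had 1 copy, CRK23 had 3 and EMB1290 had 4, and protein length ran from 528 residues in CRK24 to 1043 residues in CRK8. The coding sequence of the first motif is shown for the 8 members with the lower calls described below and for CRK19 and CRK40, the closest relatives of CRK20 and CRK39, to show how alike these members are where the family is defined. Sequences were read from the RefSeq TAIR10.1 genome, 5′ to 3′ on the strand of the gene, and capitals mark the 3 cysteine codons.
CRK36, chr4:2234375-2234413, minus strand: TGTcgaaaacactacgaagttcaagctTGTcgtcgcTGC
CRK37, chr4:2238648-2238686, plus strand: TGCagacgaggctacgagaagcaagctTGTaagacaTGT
CRK38, chr4:2242344-2242382, plus strand: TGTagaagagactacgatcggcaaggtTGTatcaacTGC
CRK39, chr4:2259817-2259855, plus strand: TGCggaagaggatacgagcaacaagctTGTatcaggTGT
CRK40, chr4:2290285-2290323, plus strand: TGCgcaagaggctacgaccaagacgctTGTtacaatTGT
CRK6, chr4:12121652-12121690, plus strand: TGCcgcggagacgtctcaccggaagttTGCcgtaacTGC
CRK7, chr4:12125983-12126021, plus strand: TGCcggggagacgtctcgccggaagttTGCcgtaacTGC
CRK19, chr4:12171379-12171417, plus strand: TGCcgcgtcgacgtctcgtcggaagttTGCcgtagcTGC
CRK20, chr4:12174992-12175030, plus strand: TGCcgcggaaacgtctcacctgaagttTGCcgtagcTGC
CRK23, chr4:12185995-12186033, plus strand: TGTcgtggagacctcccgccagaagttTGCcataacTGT
Over these 39 bases CRK6 and CRK7 differed at 2 bases, CRK19 and CRK20 at 6 bases, and CRK39 and CRK40 at 9 bases. Reads from such stretches can be hard to place. Of all 50-base windows of a member's exons, 22% in CRK6, 16.5% in CRK8, 16.2% in CRK22 and 15.4% in CRK13 occur more than once in the nuclear genome, against 6.72% in CRK20, 5.38% in CRK39 and 4.43% in CRK40. The levels of the first 4 are therefore less certain than those of the others. CRK10 and CRK11, CRK28 and CRK29, and CRK16 and EMB1290 overlap each other in the annotation, and their reads may be split between them.

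The promoters of the 2 closely related pairs CRK19 and CRK20, and CRK39 and CRK40, are shown because the members of each pair gave different changes. Each is the 300 bases before the annotated transcript start in TAIR10.1, on the plus strand. Capitals mark TTGAC and TGACG on either strand (GTCAA and CGTCA on the other strand), and overlapping matches such as TTGACG run together.
CRK19, chr4:12170655-12170954, plus strand: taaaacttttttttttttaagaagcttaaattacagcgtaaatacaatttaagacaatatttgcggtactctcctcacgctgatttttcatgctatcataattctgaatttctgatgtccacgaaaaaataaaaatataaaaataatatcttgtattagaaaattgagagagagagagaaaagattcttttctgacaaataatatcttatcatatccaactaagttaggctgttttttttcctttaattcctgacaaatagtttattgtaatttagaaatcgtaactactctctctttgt
CRK20, chr4:12174433-12174732, plus strand: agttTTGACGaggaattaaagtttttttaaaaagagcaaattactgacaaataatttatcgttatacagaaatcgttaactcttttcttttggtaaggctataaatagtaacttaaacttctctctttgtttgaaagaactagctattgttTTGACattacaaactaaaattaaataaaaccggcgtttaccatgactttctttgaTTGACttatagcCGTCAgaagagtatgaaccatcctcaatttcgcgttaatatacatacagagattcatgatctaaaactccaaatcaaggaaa
CRK39, chr4:2259198-2259497, plus strand: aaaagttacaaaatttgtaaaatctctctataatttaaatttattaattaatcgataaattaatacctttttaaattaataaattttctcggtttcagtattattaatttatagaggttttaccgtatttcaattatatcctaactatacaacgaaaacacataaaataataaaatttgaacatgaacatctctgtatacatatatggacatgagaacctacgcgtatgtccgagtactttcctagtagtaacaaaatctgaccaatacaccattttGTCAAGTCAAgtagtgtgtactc
CRK40, chr4:2288316-2288615, plus strand: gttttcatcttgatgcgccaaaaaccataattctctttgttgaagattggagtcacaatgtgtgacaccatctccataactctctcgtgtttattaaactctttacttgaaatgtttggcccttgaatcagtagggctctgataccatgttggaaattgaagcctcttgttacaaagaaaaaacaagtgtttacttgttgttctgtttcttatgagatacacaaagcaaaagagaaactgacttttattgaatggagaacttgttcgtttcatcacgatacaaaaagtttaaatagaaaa
CRK20 held 3 TTGAC and 2 TGACG matches and CRK39 held 2 TTGAC matches, whereas CRK19 and CRK40 held neither motif in this window. The windows of a pair need not cover matching stretches. The annotated start of CRK40 (2288616) lies farther before its first cysteine motif (2290285) than that of CRK39 (2259498 and 2259817). The same holds for CRK19 (12170955 and 12171379) beside CRK20 (12174733 and 12174992). Bases after the annotated start were not searched, so the different matches within a pair may reflect the annotation. CRK18 and EMB1290, another closely related pair with different changes, held 3 TTGAC matches each. At least 1 TTGAC stood in 30 of the 39 member promoters (76.9%), against 50.4% of 27443 promoters of the same length, and at least 2 stood in 18 (46.2%), against 17.9%. TGACG stood in 13 member promoters (33.3%), against 21.3% of all promoters. The block had TTGAC in 14 of 19 promoters (73.7%) and the members outside it in 16 of 20 (80%). These matches describe the letters of the window and not a bound site.

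The depositions hold edgeR result tables and no reads per library, and the reads of each library were recovered from them by arithmetic for 21238 genes, all 37 members included. Effective depth ran from 14696808 reads in the shallower 35S::miP1a library to 18884723 reads in the deeper Col-0 library. In a library, 3 reads were 0.159 to 0.204 counts per 1000000 effective reads (CPM). The floor used here was 3 reads per genotype, or 0.0838 to 0.0949 CPM over both libraries. Which of 2 libraries carries replicate number 1 is unknown, and they are called the deeper and the shallower library of a genotype. FT, the florigen gene that CO activates, was at 12.9 and 6.08 CPM in Col-0, at 0.916 and 0.263 CPM in co-SAIL, at 0 reads in 35S::miP1a and at 1 read in 35S::miP1b. The CO transcript itself stood between 4.46 and 8.31 CPM in all 8 libraries and does not check the co-SAIL label. Transcript miP1a reached 3701 CPM in 35S::miP1a against 0.363 to 0.79 CPM in the other genotypes, and miP1b reached 1046 CPM in 35S::miP1b against 0.0317 to 0.119 CPM. Leaf mesophyll markers (4 of 4 measured) summed to between 23898 and 28768 CPM per genotype, most of it from RBCS1A. Of them LHCB1.1 and LHCB2.1 rose in 35S::miP1a (log2 change 1.35 and 1.43, FDR 7.9e-12 and 9.7e-13), LHCB1.1 was lower in 35S::miP1b than in 35S::miP1a (log2 difference −1.86, FDR 7.6e-24), and their part in the CRK results was not tested. Flower markers (7 of 7 measured) summed to between 0.754 and 1.27 CPM, with AP1 at 0 or 1 read. Of the root markers (4 of 4 measured, 68.2 to 75.5 CPM), SHR and SCR carried nearly all reads, and PIN2 and PYK10 were at or under 13 reads per genotype. PYK10 was higher in 35S::miP1b than in Col-0 (log2 change 2.06, FDR 8.2e-04), with 13 reads against 0. Its 35S::miP1b libraries stood at 0.665 and 0.0564 CPM. In leaves a lower CRK level can mean fewer cells that express the gene or less transcript per cell, and these cannot be told apart.

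Levels of the members in Col-0 leaves were spread widely. Per kilobase of exon, CRK40 was highest with 83.8 CPM, followed by CRK4 with 64.7 CPM and CRK10 with 32.6 CPM, and CRK32 and CRK26 were lowest with 0.0522 and 0.0938 CPM. CRK4, whose overexpression is known to cause cell death, stood at 188 and 139 CPM in Col-0, at 67.3 and 73.6 CPM in co-SAIL, at 214 and 237 CPM in 35S::miP1a and at 77.4 and 82.5 CPM in 35S::miP1b. Its 4 libraries of co-SAIL and 35S::miP1b lay below, and its 2 libraries of 35S::miP1a above, both Col-0 libraries. CRK10, one of the pathogen-induced members, ranged from 54.6 to 87.3 CPM over all 8 libraries with no change past the test. Among the 31 members with at least 1 CPM, the 2 libraries of a genotype differed by a median of 0.18 to 0.25 on the log2 scale (with 0.5 read added to each library), against 0.13 to 0.21 over 16325 genes at that level.

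In 35S::miP1b leaves 8 of the 37 members were called lower than in Col-0 and none was called higher, at a fold change of at least 4 and a false discovery rate (FDR) below 0.001. These were CRK6, CRK7, CRK20 and CRK23 of the tandem block and CRK36, CRK37, CRK38 and CRK39 of a second array. The 8 members are 21.6% of the family, against 1.39% of all 21960 genes called lower and 0.0956% called higher by the same rule. The test was a negative binomial likelihood ratio with the dispersion of the deposited fit, adjusted over all genes by the Benjamini-Hochberg method. Because all 3 genotypes were set against the same 2 Col-0 libraries, their comparisons share that reference and are given side by side.

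**Figure D1:**
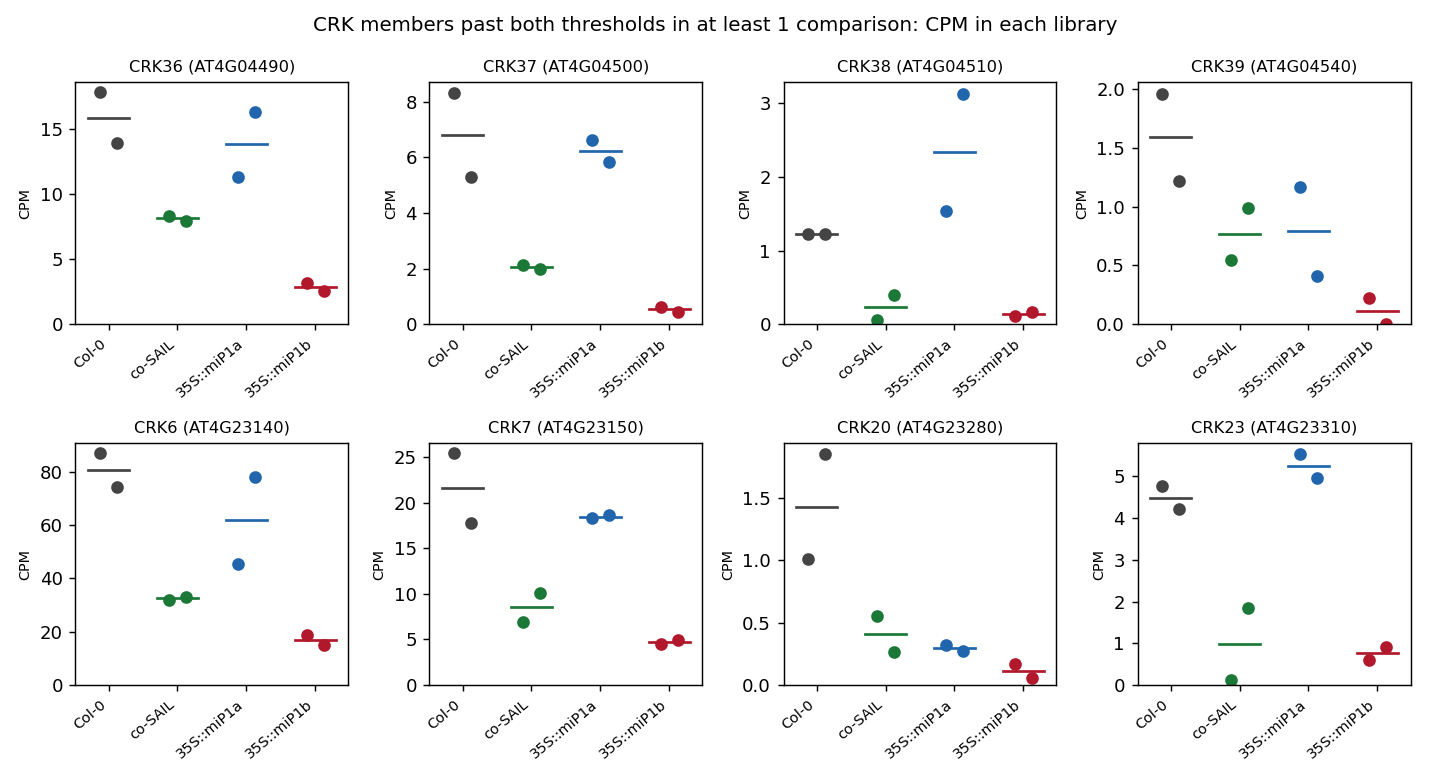
CPM of the 8 CRK members called lower in 35S::miP1b, for each of the 8 libraries; bars are the mean of the 2 libraries of a genotype and points are the libraries, with a separate linear axis from 0 for each gene. For all 8 members both 35S::miP1b libraries lie below both Col-0 libraries, whereas for 6 of them, all but CRK20 and CRK39, at least 1 35S::miP1a library reaches the lower Col-0 library.

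CRK36 to CRK40 form the second array, AT4G04490 to AT4G04570, which spans 61.2 kb of chromosome 4. CRK36, which is known as a partner of the immune kinase BIK1, stood at 17.8 and 13.9 CPM in Col-0 and at 3.16 and 2.54 CPM in 35S::miP1b. It was 5.64-fold lower there (log2 change −2.50, SE 0.23, FDR 1.8e-26). In co-SAIL it stood at 8.3 and 7.95 CPM and in 35S::miP1a at 11.3 and 16.3 CPM, so that only the 35S::miP1a libraries overlapped those of Col-0. CRK37 stood at 8.31 and 5.31 CPM in Col-0, at 2.14 and 1.97 CPM in co-SAIL, at 6.64 and 5.85 CPM in 35S::miP1a and at 0.609 and 0.451 CPM in 35S::miP1b. Its level in 35S::miP1b was 13.1-fold lower than in Col-0 (log2 change −3.71, SE 0.38, FDR 5.6e-29), and no library of co-SAIL or 35S::miP1b overlapped Col-0.

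CRK38 and CRK39 were scarce transcripts of the same array. CRK38 stood at 1.22 CPM in both Col-0 libraries, at 0.0611 and 0.394 CPM in co-SAIL, at 1.54 and 3.13 CPM in 35S::miP1a and at 0.111 and 0.169 CPM in 35S::miP1b. Its 35S::miP1b level rested on 5 reads against 42 in Col-0 and was 8.71-fold lower (log2 change −3.12, 95% interval −4.50 to −1.75, FDR 1.4e-06). This call was lost without the deeper 35S::miP1b library (log2 change −2.85). CRK39 stood at 1.96 and 1.22 CPM in Col-0, at 0.549 and 0.985 CPM in co-SAIL, at 1.17 and 0.408 CPM in 35S::miP1a and at 0.222 CPM and 0 reads in 35S::miP1b. With 4 reads against 56 it was 14.5-fold lower in 35S::miP1b (log2 change −3.86, 95% interval −5.36 to −2.36, FDR 4.0e-10). CRK40, the fifth gene of the array and the most abundant member per length, was only 1.66-fold lower there (log2 change −0.73, SE 0.17, FDR 5.2e-04), at 156 CPM in both 35S::miP1b libraries against 287 and 226 CPM in Col-0.

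Within the tandem block the calls in 35S::miP1b fell on 2 neighbours, CRK6 and CRK7, and on 2 genes at the other end, CRK20 and CRK23. CRK6 and CRK7 are known to protect leaves against oxidative stress in the apoplast. CRK6 stood at 87.1 and 74.4 CPM in Col-0, at 31.9 and 33 CPM in co-SAIL, at 45.5 and 78 CPM in 35S::miP1a and at 18.9 and 15 CPM in 35S::miP1b, where it was 4.79-fold lower (log2 change −2.26, SE 0.18, FDR 5.2e-32). CRK7 stood at 25.5 and 17.8 CPM in Col-0, at 6.96 and 10.1 CPM in co-SAIL, at 18.3 and 18.6 CPM in 35S::miP1a and at 4.54 and 4.96 CPM in 35S::miP1b, where it was 4.64-fold lower (log2 change −2.21, SE 0.21, FDR 4.5e-24). For both genes co-SAIL and 35S::miP1b lay wholly below Col-0 and 35S::miP1a overlapped it. Without the deeper Col-0 library, CRK7 was lower by less than 4-fold (log2 change −1.91).

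CRK20 and CRK23 are near the distal end of the block. CRK20, whose overexpression is known to cause cell death, stood at 1.01 and 1.85 CPM in Col-0, at 0.549 and 0.263 CPM in co-SAIL, at 0.319 and 0.272 CPM in 35S::miP1a and at 0.166 and 0.0564 CPM in 35S::miP1b. All 6 libraries of the other genotypes lay below both Col-0 libraries, and with 4 reads against 48 the level in 35S::miP1b was 12.4-fold lower (log2 change −3.64, 95% interval −5.14 to −2.13, FDR 1.5e-08). CRK23, the member with 3 cysteine motifs, stood at 4.77 and 4.22 CPM in Col-0, at 0.122 and 1.84 CPM in co-SAIL, at 5.53 and 4.97 CPM in 35S::miP1a and at 0.609 and 0.902 CPM in 35S::miP1b. It was 5.99-fold lower in 35S::miP1b (log2 change −2.58, SE 0.34, FDR 1.6e-14). Its 2 co-SAIL libraries, with 2 and 28 reads, were 15.1-fold apart, the widest gap in that genotype among members with a mean of at least 1 CPM.

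At any fold change, 16 members were lower in 35S::miP1b at an FDR below 0.001 and none was higher, whereas 3.69% of all genes were lower and 0.984% higher by that rule. Besides the 8 above these were CRK13 (log2 change −1.79), CRK8 (−1.72), CRK24 (−1.08), CRK14 (−1.07), CRK4 (−1.05), CRK11 (−0.94), CRK15 (−0.91) and CRK40 (−0.73). CRK13, whose overexpression is known to raise salicylic acid and resistance to Pseudomonas syringae, stood at 10.3 and 8.31 CPM in Col-0 and at 2.49 and 2.93 CPM in 35S::miP1b. A limma voom fit, chosen after seeing the data, takes its error from the spread between libraries and could test 35 members. At its FDR below 0.05 it had 17 members lower and 1 higher in 35S::miP1b, against 5.66% of genes lower and 3.44% higher. CRK38 was the only one of the 8 calls that it lost (adjusted p = 0.0521 by limma). Both 35S::miP1b libraries lay below both Col-0 libraries for 22 of the 37 members (59.5%) and above them for 4, against 25.6% and 23.2% of 21238 genes. The 1 higher member by limma voom was CRK18, which stood at 54.9 and 51.6 CPM in Col-0 and at 79.5 and 87.7 CPM in 35S::miP1b (log2 change 0.65, FDR 0.00274, adjusted p = 0.0223 by limma).

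**Figure D2:**
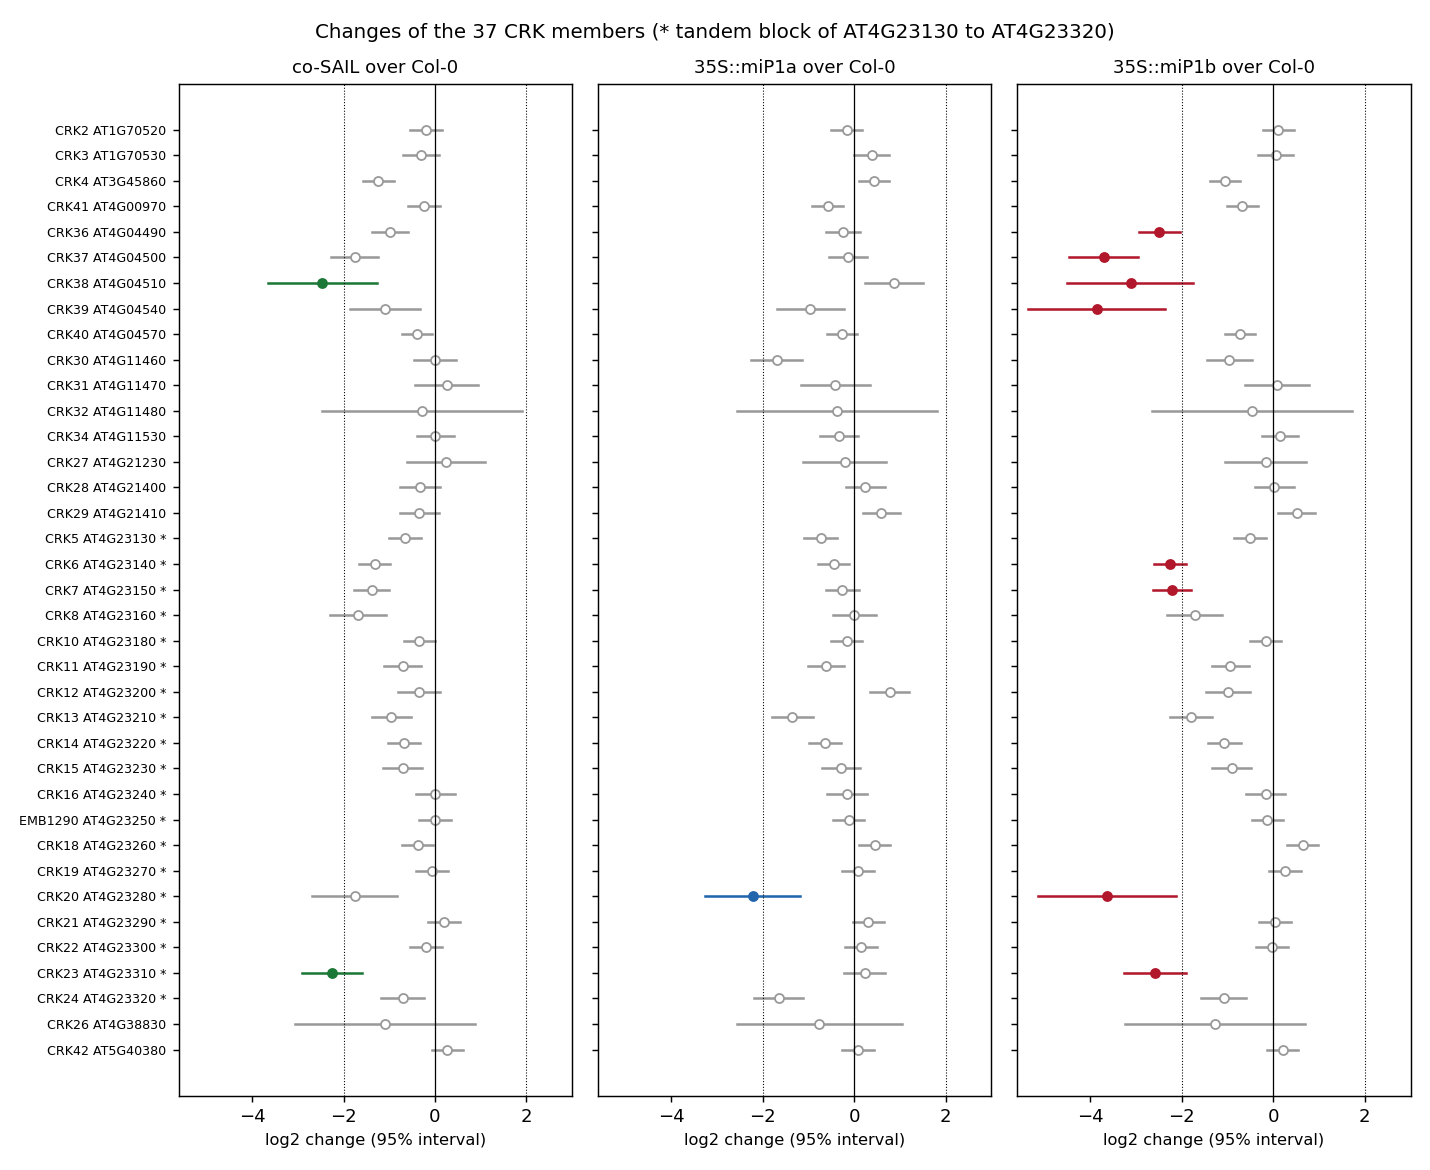
Log2 change of each of the 37 CRK members against Col-0 in co-SAIL, 35S::miP1a and 35S::miP1b, with 95% intervals; filled points passed a fold change of 4 and an FDR below 0.001, and dotted lines mark a 4-fold change. Filled points number 2 in co-SAIL, 1 in 35S::miP1a and 8 in 35S::miP1b, and all of them lie on the lower side.

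In the co-SAIL mutant 2 members, CRK38 and CRK23, were called lower and none was called higher. They are 5.41% of the family, against 0.196% of all genes called lower and 0.0501% called higher. CRK38 rested on 7 reads against 42 in Col-0 and was 5.49-fold lower (log2 change −2.46, SE 0.61, FDR 3.2e-04). CRK23 was 4.76-fold lower (log2 change −2.25, SE 0.33, FDR 1.4e-10). Neither passed limma voom (adjusted p = 0.29 and 0.0888 by limma). Without the deeper co-SAIL library both calls were lost (log2 change −1.63 for CRK38 and −1.30 for CRK23), and CRK38 also failed the FDR limit without either Col-0 library, with its log2 change still −2.46.

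Decreases of less than 4-fold were more common in co-SAIL. At an FDR below 0.001 with any fold change, 9 members were lower and none was higher, against 0.993% and 0.187% of all genes. Beside CRK38 and CRK23 they were CRK37 (log2 change −1.76), CRK8 (−1.69), CRK7 (−1.38), CRK6 (−1.32), CRK4 (−1.24), CRK36 (−0.98) and CRK13 (−0.96). Limma voom also called 4 of them lower and no member higher, namely CRK4 (adjusted p = 0.00216 by limma), CRK6 and CRK7 (0.0126 each) and CRK37 (0.042), where 0.489% of genes were lower and 0.0674% higher. Both co-SAIL libraries lay below both Col-0 libraries for 24 of the 37 members (64.9%), against 17.3% of 21238 genes, and above them for 1 member, against 15.2%.

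In 35S::miP1a leaves only CRK20 was called lower and no member was called higher, against 0.31% of all genes called lower and 0.565% called higher. CRK20 had 10 reads against 48 in Col-0 and was 4.66-fold lower (log2 change −2.22, SE 0.53, FDR 1.0e-04). The call was lost without the shallower Col-0 library (log2 change −1.75) and without the deeper (−2.35) or the shallower 35S::miP1a library (−2.12), and limma voom did not make it (adjusted p = 0.0955 by limma). CRK30, of the array AT4G11460 to AT4G11530, stood at 4.61 and 4.67 CPM in Col-0, at 0.904 and 2.11 CPM in 35S::miP1a and at 5.37 and 3.81 CPM in co-SAIL. It was 3.24-fold lower in 35S::miP1a (log2 change −1.69, SE 0.29, FDR 1.7e-07). CRK24 (log2 change −1.65, FDR 8.0e-08) and CRK13 (log2 change −1.35, FDR 3.7e-07) also fell, so that 4 members were lower and none higher at an FDR below 0.001, against 1.44% and 1.98% of all genes. Limma voom had 5 members lower and none higher, against 1.78% and 2.53% of genes, namely CRK13, CRK24, CRK30 and, with smaller changes, CRK5 (log2 change −0.73) and CRK41 (−0.58).

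No member was higher in 35S::miP1a than in Col-0 at an FDR below 0.001 or by limma voom. Both 35S::miP1a libraries lay above both Col-0 libraries for 10 of the 37 members, near the share of all genes (23.3% of 21238). They lay below them for 14 (37.8%), against 24.1%. CRK38 (log2 change 0.88, FDR 0.0504), CRK12 (0.78, FDR 0.00536) and CRK29 (0.59, FDR 0.045) had the largest values above 0. CRK29 stood at 6.73 and 6.91 CPM in Col-0, at 10.3 and 10.2 CPM in 35S::miP1a and at 10.5 and 8.91 CPM in 35S::miP1b.

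The 3 mutant and transgenic genotypes were also compared with each other, to test where the member changes differed. Between the 2 overexpressors, 5 members were called lower in 35S::miP1b than in 35S::miP1a and none was called higher, against 1.39% of all genes lower and 0.0683% higher. These were CRK36 (4.73-fold, log2 difference −2.24), CRK37 (11.9-fold, −3.57), CRK38 (16-fold, −4.00), CRK39 (7.48-fold, −2.90) and CRK23 (7-fold, −2.81), with FDR from 3.0e-26 in CRK37 to 3.1e-04 in CRK39. CRK39 was lost without the deeper 35S::miP1a library (log2 difference −1.87) or the shallower 35S::miP1b library (−1.92), and by limma voom (adjusted p = 0.196 by limma). CRK36 fell under 4-fold without the shallower 35S::miP1a library (−1.99). CRK20 did not differ past the test between the 2 overexpressors, with 10 reads against 4.

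Against co-SAIL, CRK38 (10.1-fold, log2 difference 3.34, FDR 1.1e-10) and CRK23 (5.56-fold, 2.48, FDR 6.1e-14) were called higher in 35S::miP1a, where 0.765% of all genes were higher and 0.228% lower. The CRK23 call was lost without the deeper co-SAIL library (log2 difference 1.52). No member was called between 35S::miP1b and co-SAIL, where 0.606% of all genes were lower and 0.0638% higher. At any fold change with an FDR below 0.001, 10 members were higher in 35S::miP1a than in co-SAIL and 1, CRK30, was lower (log2 difference −1.69, FDR 2.5e-07), against 2.41% of all genes higher and 0.965% lower. By the same rule 10 members were lower in 35S::miP1b than in 35S::miP1a and none was higher, against 2.89% and 0.323% of all genes. By that rule CRK36 (log2 difference −1.51), CRK37 (−1.95) and CRK6 (−0.94) were lower and CRK18 (1.03) was higher in 35S::miP1b than in co-SAIL, against 1.94% of all genes lower and 0.583% higher. These 3 comparisons share libraries with one another and with those against Col-0.

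The share of calls in the tandem block and among the other members depended on the comparison, and the difference between them was not tested. In 35S::miP1b against Col-0, 4 of 19 block members (21.1%) and 4 of 18 others (22.2%) were called lower, against 1.39% of all genes. Between the overexpressors 1 of 19 block members (5.26%) and 4 of 18 others (22.2%) were called lower in 35S::miP1b, also against 1.39% of all genes. By limma voom 11 of 19 block members and 6 of 16 others were lower in 35S::miP1b than in Col-0. The median log2 change in co-SAIL, 35S::miP1a and 35S::miP1b was −0.68, −0.16 and −0.94 in the block and −0.32, −0.23 and −0.57 outside it, where the median of all genes was 0.00 in each comparison. The spread within each was wide, from −3.64 to 0.65 in the block and from −3.86 to 0.51 outside it in 35S::miP1b. The 19 block genes lie in 74.2 kb, 8 on the plus strand and 11 on the minus strand, with 2 other protein-coding genes between them, EP1 and AT4G23271.

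Members outside the block differed by array. The 5 genes of the array CRK36 to CRK40 had medians of −1.10, −0.25 and −3.12, with 4 called lower in 35S::miP1b. The 4 measured genes of the array AT4G11460 to AT4G11530 had medians of 0.00, −0.39 and −0.19, the 3 genes CRK27, CRK28 and CRK29 had −0.32, 0.24 and 0.02, and the pair CRK2 and CRK3 had −0.25, 0.11 and 0.08, with no call in any of them. CRK2, known to phosphorylate the NADPH oxidase RBOHD, ranged from 36.1 to 57.5 CPM over all libraries. CRK32 had 4 reads in Col-0 and none elsewhere, and CRK26 had 7, 2, 4 and 0 reads in Col-0, co-SAIL, 35S::miP1a and 35S::miP1b, so that a change in these 2 was not detectable at this depth.

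**Figure D3:**
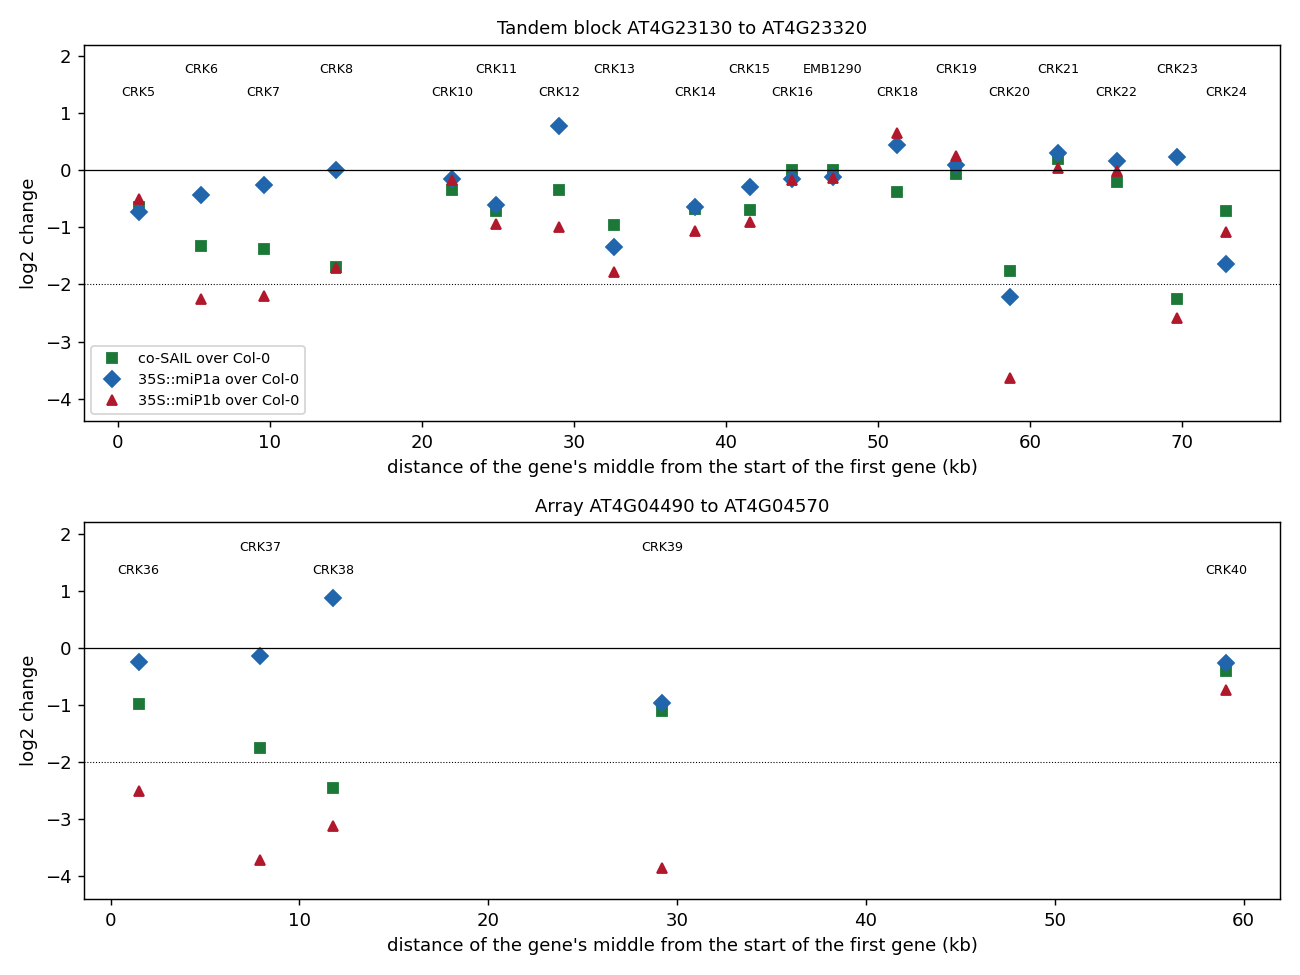
Log2 change against Col-0 of CRK members along the tandem block and along the array CRK36 to CRK40, for the 3 genotypes. Each point is 1 gene in 1 genotype, and dotted lines mark a 4-fold decrease. The median in 35S::miP1b, not drawn, is −3.12 for the array CRK36 to CRK40 and −0.94 for the tandem block.

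Neighbours with very alike proteins could differ in their change. CRK19 and CRK20 stand next to each other and share 84.7% of aligned residues, and in 35S::miP1b their log2 changes were 0.25 (FDR 0.371) and −3.64. CRK19 stood at 34 and 34.3 CPM in Col-0 and at 39.6 and 41.7 CPM in 35S::miP1b. Per kilobase of exon its Col-0 level was 13 CPM, against 0.658 CPM for CRK20. CRK39 and CRK40 share 79.5% of residues, with log2 changes of −3.86 and −0.73, and CRK18 and EMB1290 share 76.5%, with 0.65 and −0.13. CRK6 and CRK7 share 75.0% and moved by −2.26 and −2.21. In the promoters, shown above for the first 2 pairs, TTGAC was present in all 8 members called lower in 35S::miP1b. It was present in 20 of the 29 other measured members (69%). The mean number of TTGAC matches was alike, 1.75 in the 8 and 1.66 in the 29. The most in 1 promoter was 3 in the 8 and 6 in the 29. Of 2 longer forms, TTGACT was present in 7 of the 8 and in 12 of the 29, where 21.9% of all promoters held it, and TTGACC in 0 of the 8 and in 7 of the 29, where 14% of all promoters held it. TGACG was present in 5 of the 8 and in 8 of the 29.

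Genes that act around CRKs were read from lists. Among 11 salicylic acid and immune regulators, 3 were called lower in 35S::miP1b, against 1.39% of all genes, and the list medians were −0.74, −0.02 and −1.01 in co-SAIL, 35S::miP1a and 35S::miP1b. PBS3, an enzyme of salicylic acid synthesis, stood at 9.48 and 10.4 CPM in Col-0, at 2.69 and 3.28 CPM in co-SAIL, at 15 and 17 CPM in 35S::miP1a and at 1.38 and 1.3 CPM in 35S::miP1b (log2 change −2.88, FDR 1.1e-26). FMO1 and ALD1, which make the immune signal N-hydroxypipecolic acid, had 13 and 29 reads in Col-0 and none in 35S::miP1b. At the floor of 3 reads per genotype these are log2 changes of −2.17 and −3.33 or lower. Limma voom did not make the call of FMO1 (adjusted p = 0.0523 by limma) and had ALD1 lower (adjusted p = 0.00866 by limma). ICS1, the main enzyme of salicylic acid synthesis, was lower in co-SAIL (log2 change −1.07, FDR 2.0e-05) and in 35S::miP1b (−1.39, FDR 8.4e-10) and stood at 0.24 in 35S::miP1a (FDR 0.42).

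Of 5 salicylic acid output genes, 2 were called lower in co-SAIL and 4 in 35S::miP1b, against 0.196% and 1.39% of all genes, with medians of −1.81, −0.53 and −3.03. PR1, a pathogenesis-related protein, stood at 137 CPM in Col-0, at 29.1 CPM in co-SAIL, at 95.2 CPM in 35S::miP1a and at 0.112 CPM in 35S::miP1b, as genotype means. PR2, a beta-1,3-glucanase, went the other way in 35S::miP1a (log2 change 1.58, FDR 6.2e-18) and was lower in co-SAIL (−1.81) and 35S::miP1b (−3.14). For PR1, PR2 and PR5 the reads of each library were not recovered, so their spread between libraries is unknown and limma voom could not test them. The 2 calls in co-SAIL were PR1 and NIMIN1, and limma voom did not make that of NIMIN1 (adjusted p = 0.185 by limma). In 35S::miP1b limma voom had NIMIN1 and NIMIN2 lower (adjusted p = 0.019 and 0.0015 by limma). Of 9 WRKY factors, WRKY40, WRKY46 and WRKY60 were called lower in 35S::miP1b (log2 changes −2.55, −2.22 and −2.05), against 1.39% of all genes, none was called in the other genotypes, and the medians were −0.76, −0.44 and −1.32.

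The receptor complex and oxidative burst list had no call. Its 7 genes (FLS2, EFR, BAK1, BIK1, RBOHD, RBOHF and KAPP) had medians of −0.10, 0.19 and 0.12, and none passed an FDR of 0.001 against Col-0. RBOHD, the oxidase of the burst, ranged from 88.1 to 114 CPM over all 8 libraries. The plasmodesmata-located proteins carry DUF26 domains like the CRKs but no kinase. Of their 8 genes 7 were measured, none was called, and the medians were 0.24, 0.14 and 0.19.

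**Figure D4:**
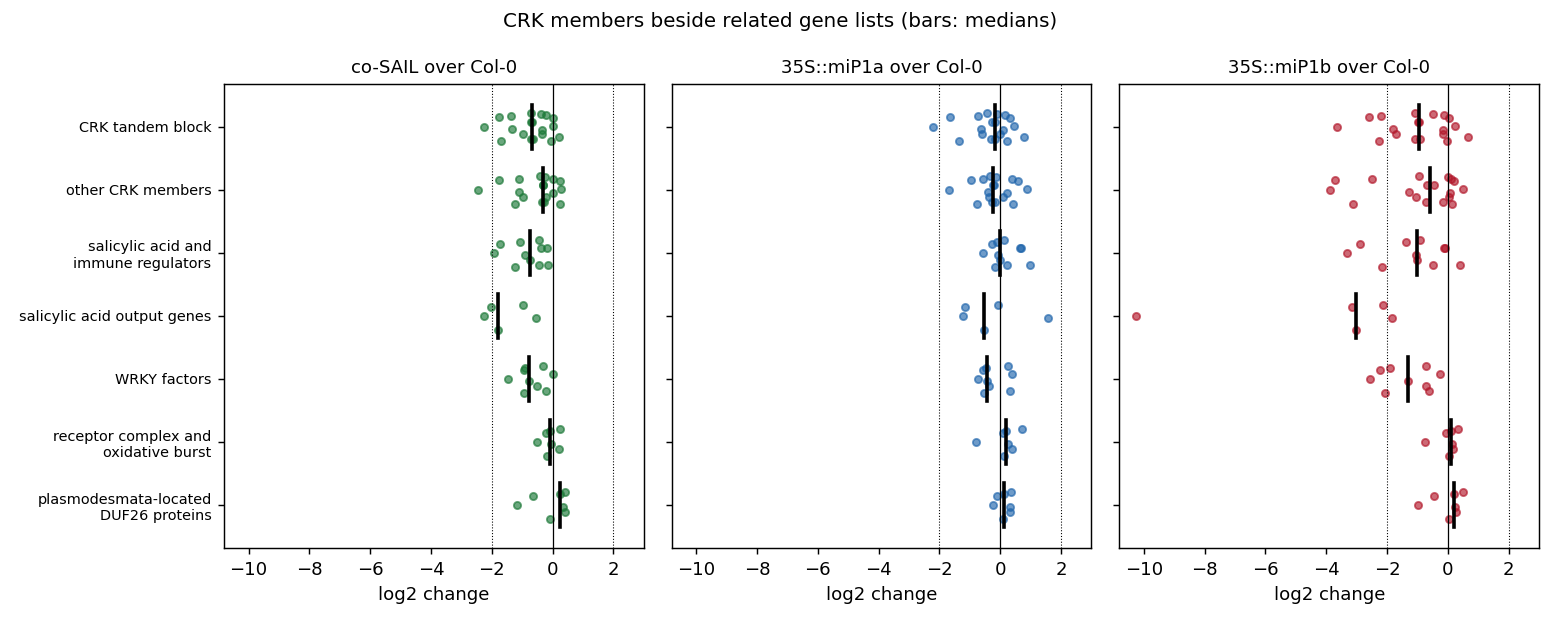
Log2 change against Col-0 of the CRK members and of 5 gene lists, for the 3 genotypes. Each point is 1 gene, and dotted lines mark a 4-fold change. Medians in 35S::miP1b are −0.94 for the CRK tandem block and −0.57 for the other CRK members, which are drawn apart. They are −1.01 for salicylic acid and immune regulators, −3.03 for salicylic acid output genes and −1.32 for WRKY factors. They are 0.12 for the receptor complex and 0.19 for plasmodesmata-located DUF26 proteins.

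The senescence marker SAG13 was lower in 35S::miP1b, like the called CRK members. In 35S::miP1a it was higher, as were CRK38 and CRK23 without a call, whereas the other called members stood below Col-0. SAG13 stood at 5.19 and 2.49 CPM in Col-0, at 2.38 and 1.31 CPM in co-SAIL, at 35.1 and 5.17 CPM in 35S::miP1a and at 0.222 and 0.0564 CPM in 35S::miP1b. It was called higher in 35S::miP1a (log2 change 2.47) and lower in 35S::miP1b (−4.83), and limma voom called neither (adjusted p = 0.19 and 0.295 by limma). SEN1 was at 6 reads or fewer in every genotype, so that of the 2 senescence markers measured only SAG13 gave a level, and the summed level ran from 0.14 CPM in 35S::miP1b to 22.2 CPM in 35S::miP1a. Its part in the CRK results was not tested.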

How the data were processed

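RNA of leaves was prepared with an Illumina TruSeq protocol and sequenced on a HiSeq2000, and, per the labels and methods, the authors trimmed reads with Trimmomatic 0.32, mapped them to TAIR10 with Bowtie in RobiNA and tested them with edgeR 2.6.12. They deposited 3 tables of 21960 genes, with a log2 ratio of Col-0 over each genotype, a log2 mean CPM over all libraries, a likelihood ratio score, a p-value and an FDR. The authors' p-value and FDR columns were not used. Strand use in counting is not given in the sources used here.

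The ratios, mean and likelihood ratio scores were inverted for each gene to the whole reads per library that give all 7 deposited values under a negative binomial model (dispersion 0.0132, a coefficient of variation of 11.5%, and a prior count of 0.0625 per library). A single solution was found for 21238 genes (96.7%), 704 had none, 663 of them above the search limit of 220 CPM, and 18 had several; the largest deviation was 2.9e-08, with a tolerance of 0.0001. Genes without a solution were tested on the genotype totals that the deposited ratios and mean imply. No replicate number could be attached to a library. CPM are counts per 1000000 effective reads, and a genotype below 3 reads was set to 3 reads for log2 changes.

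Each comparison was tested by a negative binomial likelihood ratio with 1 degree of freedom and 1 dispersion for all 8 libraries, adjusted by Benjamini-Hochberg over all genes, and called at a fold change of 4 and an FDR below 0.001, the thresholds of the methods. Limma voom (limma 3.58.1, R 4.3.3) was run on 17794 genes with at least 40 reads. Member names, positions, proteins and promoters came from RefSeq TAIR10.1. Fits were written in Python 3.11.15 with SciPy 1.17.1 and numba 0.67.0, sequences were read with Biopython 1.88, and the scripts were tested on simulated data.

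Members named in full passed both thresholds against Col-0 in at least 1 genotype, followed by members with an FDR below 0.001 and the 3 most abundant per length. Members and lists were chosen with earlier results of these data known. CRK2, CRK12, CRK18, CRK19, CRK26, CRK29, CRK32, EMB1290 and the genes named from lists were chosen after their values were seen. The alternatives were other fold, FDR and dispersion settings, a minimum of 1 CPM, centring on the median gene, the prior count of the authors, leaving out each library, and limma voom.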

Additional observations from a re-analysis of the deposited data

Results flagged for a closer look

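In 7 cases a difference between the effects of 2 genotypes passed the test of the difference itself, by the negative binomial likelihood ratio at a fold change of 4 and an FDR below 0.001. Between the overexpressors, the log2 level in 35S::miP1b minus that in 35S::miP1a was −2.24 for CRK36, −3.57 for CRK37, −4.00 for CRK38, −2.90 for CRK39 and −2.81 for CRK23, so that all 5 stood lower in 35S::miP1b. Between 35S::miP1a and co-SAIL the difference was 3.34 for CRK38 and 2.48 for CRK23. For CRK38 the 2 libraries of 35S::miP1a held 1.54 and 3.13 CPM and those of 35S::miP1b 0.111 and 0.169 CPM. For CRK23 the 2 co-SAIL libraries held 0.122 and 1.84 CPM, and the difference of 2.48 passed the 4-fold limit only with the deeper of them included.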

How the results depend on the processing

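The median log2 changes of the members kept their direction under every alternative, from −0.35 to −0.51 in co-SAIL, −0.04 to −0.25 in 35S::miP1a and −0.57 to −0.92 in 35S::miP1b, with −0.04 without the deeper 35S::miP1a library. Counts of members called moved with the thresholds. At a minimum fold of 2 they were 7 in co-SAIL (2 in the report), 4 in 35S::miP1a (1) and 13 in 35S::miP1b (8), 10 between 35S::miP1b and 35S::miP1a (5), 8 between 35S::miP1a and co-SAIL (2) and 3 between 35S::miP1b and co-SAIL (0). An FDR below 1e-06 left 1 in co-SAIL and 0 in 35S::miP1a, and an FDR below 0.05 gave 1 between 35S::miP1b and co-SAIL. A dispersion of 0.04 left 1 in co-SAIL, 0 in 35S::miP1a and 4 between the overexpressors, where CRK39 was lost. A dispersion of 0.16, a coefficient of variation of 40%, left 0 in co-SAIL, 0 in 35S::miP1a, 1 in 35S::miP1b (CRK37), 2 between the overexpressors and 0 between 35S::miP1a and co-SAIL. A minimum of 1 CPM left 1, 0 and 5 against Col-0, 3 between the overexpressors and 1 between 35S::miP1a and co-SAIL, because scarce members were not tested. Limma voom with a fold of 4, chosen after seeing the data, left 0 in co-SAIL, 0 in 35S::miP1a and 7 in 35S::miP1b. Leaving out 1 library gave 0 to 3 in co-SAIL, 0 to 2 in 35S::miP1a, 7 to 8 in 35S::miP1b, 4 to 6 between the overexpressors, 1 to 3 between 35S::miP1a and co-SAIL and 0 to 1 between 35S::miP1b and co-SAIL, with the lone library assumed to vary like the others. Calls gained in this way were CRK37 without the shallower Col-0 library (−2.02) and CRK8 without the shallower co-SAIL library (−2.22) in co-SAIL, and CRK30 (−2.36) and CRK13 (at the 4-fold limit) without the shallower 35S::miP1a library in 35S::miP1a. Between the overexpressors they were CRK6 without the deeper 35S::miP1a library (−2.20) and CRK7 (−2.02) and CRK12 (−2.11) without the shallower 35S::miP1b library. Between 35S::miP1a and co-SAIL they were CRK8 without the shallower co-SAIL library (2.22) and CRK30 without the shallower 35S::miP1a library (−2.35), and between 35S::miP1b and co-SAIL CRK37 without the shallower co-SAIL library (−2.01) and CRK39 without the deeper 35S::miP1b library (−2.17). Among values of single members against Col-0, 853 kept their side of the thresholds, 25 became weaker, 4 became stronger and 0 reversed. No paired analysis was possible because the recovered libraries carry no replicate number. Depth limits CRK20, CRK38 and CRK39, which rest on 4 or 5 reads in 35S::miP1b.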

Other observations

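In 35S::miP1a the 2 libraries differed for several immune genes that were picked after their values were seen, with WRKY40 at 4.04 and 14.4 CPM, NIMIN1 at 1.06 and 3.95 CPM, FMO1 at 0.372 and 1.22 CPM and SAG13 at 35.1 and 5.17 CPM in the deeper and the shallower library. CRK30, at 0.904 and 2.11 CPM, had the widest gap of any member with at least 1 CPM in this genotype.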
